A study of Xenopus laevis with 6 samples.

Results

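Semaphorins and their receptors, the plexins and neuropilins, were examined in double explants of *Xenopus laevis* gastrula neuroectoderm. Members were the genes whose name begins with sema and a digit or with plxn, or is nrp1 or nrp2, with any .L or .S ending. This rule found 49 of the 42549 genes, namely 33 semaphorin, 13 plexin and 3 neuropilin genes. Since *X. laevis* is allotetraploid, a gene can occur as a pair of homeologs, .L and .S, which are listed apart. The 49 genes carry 27 different symbols, 22 of which have both homeologs. A gene of these families listed under a different kind of name would be missed. Sums and missing homeologs are therefore given for these names only.

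Poly(A) RNA was sequenced from 3 control and 3 stretched samples of wild type explants. In both groups, pieces of neuroectoderm were cut at stage 11.5 (by their labels, with a slightly wider range in the methods), joined in pairs by their inner sides and pinned to agarose for 3 h. Stretched explants were drawn out during this time and control explants were not. The explants of both groups were thus cut and pinned, and neither group represents the intact embryo. One average log2 CPM per gene, taken by the authors over the samples of both groups, is described here. CPM is the number of reads of a gene per 1000000 counted reads of a library. Values of single samples were not used, and the authors' own comparison of stretched with control explants was not used either. Levels of stretched and control explants were therefore not compared, and no spread between replicates can be given.

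The depth behind these averages could be read from their lowest values. The lowest average log2 CPM, -2.08, was shared by 12476 genes, and above it the linear values rose in equal steps, each 1/12 of the lowest CPM. Genes at the first step fell into 6 distinct levels with 340 to 446 genes each, and those at the second step into 21, the number of ways in which 2 reads can fall into 6 libraries. Each step thus stands for 1 read in the sum of 6 libraries, and a library held 8446373 counted reads on average. All 10550 genes with 1 to 30 reads lay within 0.1 read of a whole number. For genes with more reads, the totals given here are estimates from a weighted average of the libraries.

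Semaphorins are secreted or membrane-bound guidance proteins that share a sema domain, and they were first known for steering growing axons. Most act through plexins, single-pass receptors with an intracellular domain that inactivates small Ras-family GTPases and changes adhesion and the actin cytoskeleton. Secreted class 3 semaphorins mostly bind a neuropilin, which forms the receptor together with a class A plexin, whereas membrane-bound semaphorins bind plexins directly. In embryos before axons grow, the same proteins take part in cell movements and in the guidance of neural crest and vessels.

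All 49 genes had at least 1 read, as did 70.7% of all genes and 90.7% of the 22225 genes with an .L or .S ending. An average log2 CPM above 0 was found for 34 of them (69.4%), against 44.4% of all genes and 68.2% of those with an .L or .S ending. Among named homeologs, the semaphorin, plexin and neuropilin genes were thus about as often above this level as others. Reads were few in 6 genes (12.2%), each with 1 to 9 reads, all of them semaphorins of classes 3 and 6. This share was 17.2% for all genes and 13.6% for those with an .L or .S ending, and thus similar. Longer transcripts give more reads at the same number of molecules, and transcript lengths were not used here. Read numbers of different genes are therefore given side by side and not ranked as levels of RNA. In whole explants, fewer cells that express a gene and less RNA per cell cannot be told apart.

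**Figure D1:**
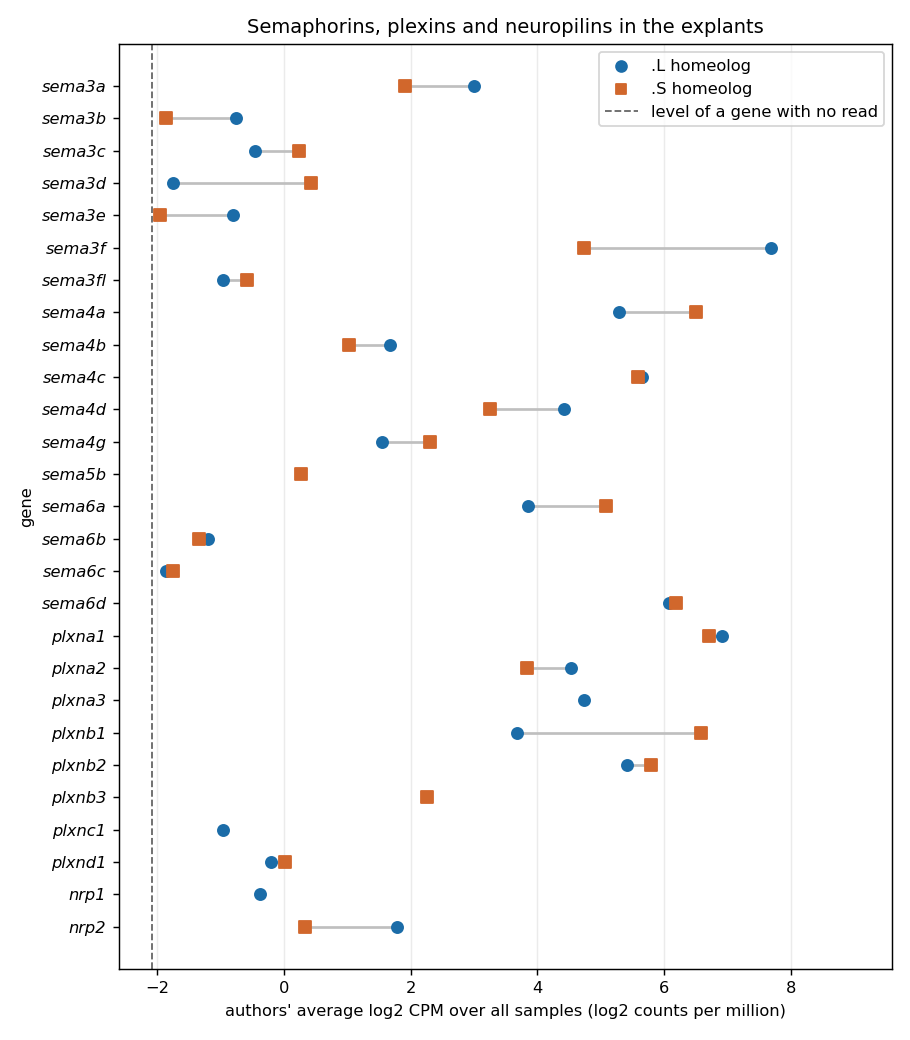
Average log2 CPM over all samples (horizontal axis) for each of the 27 gene symbols (vertical axis), with circles for .L and squares for .S homeologs joined by a line. Values run from -1.96 (sema3e.S, 1 read) to 7.69 (sema3f.L), and the dashed line marks the level of a gene with no read (-2.08).

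Among class 3 semaphorins, which are secreted, nearly all reads came from 1 gene. sema3f, which encodes a repellent that in mouse acts through nrp2, held 93.8% of the 12566 reads of the 14 class 3 genes. Its average log2 CPM was 7.69 for sema3f.L (about 10457 reads in the 6 libraries, 95% exact Poisson interval 10257 to 10659) and 4.73 for sema3f.S (about 1332 reads, 1261 to 1406). These and all further intervals cover counting error only. They leave out the spread between samples and the error of totals that are estimates. sema3a, the classical growth cone repellent that binds nrp1, followed in number of reads with an average log2 CPM of 3.00 for sema3a.L (about 392 reads) and 1.91 for sema3a.S (about 179 reads). For the other 5 class 3 symbols, both homeologs together had 18 to 73 reads.

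These low genes differed in how their few reads were split. sema3d had 3 reads from sema3d.L (average log2 CPM -1.76) and 56 from sema3d.S (0.42). sema3c, which in mouse guides neural crest cells to the heart, had 25 reads from sema3c.L (-0.46) and 48 from sema3c.S (0.24). sema3e, a ligand that in mouse binds plxnd1 without a neuropilin, had 17 reads from sema3e.L (-0.81) and 1 from sema3e.S (-1.96). sema3b had 18 reads from sema3b.L (-0.76) and 2 from sema3b.S (-1.86). sema3fl, a gene named after its likeness to sema3f, had 14 reads from sema3fl.L (-0.96) and 22 from sema3fl.S (-0.58). At 1 to 3 reads in 6 libraries a level cannot be told from that of other genes with a handful of reads, since the interval for 1 read runs from 0.0253 to 5.57 reads and that for 3 reads from 0.619 to 8.77.

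Class 4 semaphorins, which are membrane proteins that bind mainly class B plexins, all lay well above the lowest level. Each of the 10 class 4 genes had an average log2 CPM above 1, as had 61.7% of all genes with an .L or .S ending, and they held about 13645 reads together. sema4a had 5.28 for sema4a.L (about 1957 reads) and 6.50 for sema4a.S (about 4590 reads, 4458 to 4725). sema4c, which in mouse is a ligand of plxnb2, had nearly equal homeologs, with 5.64 for sema4c.L (about 2523 reads) and 5.59 for sema4c.S (about 2422 reads). sema4d, the best studied ligand of plxnb1, stood at 4.41 (sema4d.L, about 1067 reads) and 3.25 (sema4d.S, about 470 reads).

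The 2 other class 4 symbols had fewer reads. sema4g stood at an average log2 CPM of 1.55 (sema4g.L, about 137 reads) and 2.30 (sema4g.S, about 238 reads). sema4b stood at 1.67 (sema4b.L, about 149 reads) and 1.03 (sema4b.S, about 92 reads). Class 5 was represented by sema5b.S alone, a membrane protein gene with thrombospondin repeats, at 0.27 (about 49 reads).

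Class 6 semaphorins, membrane proteins that bind class A plexins, were split into symbols with many reads and symbols with hardly any. sema6d, which in chick signals through plxna1 during heart formation, had an average log2 CPM of 6.07 for sema6d.L (about 3402 reads, 3289 to 3518) and 6.19 for sema6d.S (about 3686 reads, 3568 to 3807). sema6a, a ligand of plxna2 and plxna4 in mouse, stood at 3.85 (sema6a.L, about 717 reads) and 5.08 (sema6a.S, about 1704 reads). In contrast, sema6b had 10 reads from sema6b.L (-1.20) and 8 from sema6b.S (-1.34), and sema6c had 2 from sema6c.L (-1.86) and 3 from sema6c.S (-1.76). sema6d and sema6a together thus held nearly all of the 9532 reads of the 8 class 6 genes.

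Plexins of classes A and B had about 231 to 6112 reads in each gene. plxna1, the shared signaling partner of neuropilins and a receptor of class 6 semaphorins, had an average log2 CPM of 6.92 for plxna1.L (about 6112 reads, 5960 to 6267) and 6.70 for plxna1.S (about 5257 reads, 5116 to 5401). plxna2 stood at 4.53 (plxna2.L, about 1155 reads) and 3.83 (plxna2.S, about 707 reads). plxna3, which in mouse transmits sema3f signals together with nrp2, was listed as plxna3.L alone, at 4.73 (about 1333 reads). The rule takes every name that begins with plxn, and it found no row named plxna4.

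Among class B plexins, plxnb1, the receptor of sema4d, had 3.67 for plxnb1.L (about 635 reads) and 6.57 for plxnb1.S (about 4815 reads, 4680 to 4953). plxnb2 stood at 5.41 (plxnb2.L, about 2135 reads) and 5.79 (plxnb2.S, about 2801 reads), and plxnb3.S, the only row of its symbol, at 2.26 (about 231 reads). Class C and D plexins had few reads. plxnc1.L, a receptor that in mammals binds sema7a, had 14 reads (-0.96), and plxnd1, the sema3e receptor of vessels, had 32 from plxnd1.L (-0.20) and 39 from plxnd1.S (0.01). The class A genes together held about 14564 reads and the class B genes about 10617, whereas classes C and D held 14 and 71.

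Neuropilins, the ligand-binding partners of class A plexins, also had few reads. nrp1.L, the only row of nrp1, had an average log2 CPM of -0.37 with 27 reads (95% exact Poisson interval 17.8 to 39.3). nrp2 stood at 1.78 for nrp2.L (about 162 reads, 138 to 189) and 0.34 for nrp2.S (52 reads, 38.8 to 68.2). The 3 neuropilin genes together thus held 241 reads, beside about 25266 for the 13 plexin genes and about 35792 for the 33 semaphorin genes. The explants had about 11789 reads of sema3f and 214 of nrp2, and about 571 of sema3a and 27 of nrp1.L. Of the class A plexins, which form receptors with neuropilins, they had about 11369 reads of plxna1, 1862 of plxna2 and 1333 of plxna3.L. These numbers are not ranked, since transcript lengths were not used. Which class A plexin served which ligand was not tested.

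Homeologs of the same gene were compared by the share of the pair's reads that the .L homeolog held, with an exact binomial (Clopper-Pearson) interval of 95%. Of the 22 pairs, 9 had an interval above 50% and 8 had one below 50%. The same count was not made over all pairs, and it depends on the number of reads in a pair. It therefore does not show whether these pairs were more uneven than others. By the size of the difference, 45.5% of the 22 pairs and 49.6% of all pairs exceeded 1 on the log2 scale. In 5 pairs the interval held 50%, and 4 of these (sema6b, sema6c, plxnd1 and sema3fl) had only 5 to 71 reads. Reads that fit both homeologs could have been counted for either or left out, and their treatment is not described in the sources read. The lengths of the homeologs were not corrected for.

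The most unequal pairs with many reads leaned in opposite directions. sema3f.L held 88.7% of the sema3f reads (88.1 to 89.3), which is 7.79-fold on the linear scale of the average CPM. By contrast, plxnb1.L held 11.7% of the plxnb1 reads (10.8 to 12.53), so that plxnb1.S was 7.46-fold higher. sema3d.L held 5.08% of 59 reads (1.06 to 14.1). sema3e.L and sema3b.L held most of the few reads of their pairs, with 94.4% of 18 reads (72.7 to 99.9) and 90% of 20 reads (68.3 to 98.8). In nrp2 the .L share was 75.7% (69.4 to 81.3), and in sema6a it was 29.6% (27.8 to 31.5).

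Other pairs were near balance. sema4c.L held 51.0% of the sema4c reads (49.6 to 52.4), and at about 4945 reads this was the only pair with many reads whose interval held 50%. sema6d.L held 48.0% (46.8 to 49.2) and plxna1.L 53.8% (52.8 to 54.7). These intervals do not hold 50%, but they leave out the error of estimated totals, which is not known. Whether splits this close to 50% differ from even ones was therefore not settled. plxnb2.L held 43.3% (41.9 to 44.6). Among the plexins, plxnb1 thus had the most uneven split by far, while plxna1, plxna2 and plxnb2 kept an .L share between 43.3% and 62.0%.

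**Figure D2:**
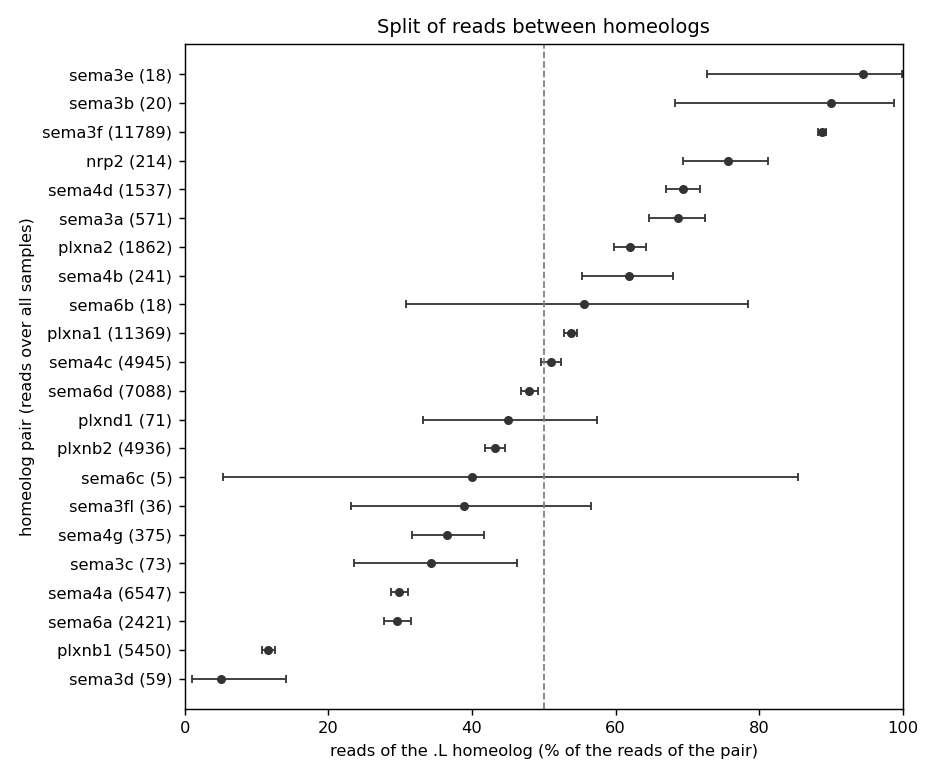
Share of reads from the .L homeolog in percent of the pair's reads (horizontal axis) for the 22 homeolog pairs (vertical axis, with the number of reads over all samples in parentheses). Bars are exact 95% binomial intervals for counting error, the dashed line marks 50%, and the well-covered pairs run from plxnb1 (11.7%) to sema3f (88.7%).

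The 22 pairs were then set beside all homeolog pairs with at least 1 read. The median absolute difference between homeologs was 0.72 on the log2 scale for the 22 pairs and 0.99 for all 7460 pairs. The difference exceeded 1 in 10 of the 22 pairs (45.5%), against 49.6% of all pairs, and exceeded 2 in 3 pairs (13.6%), against 25.7%. The offset that keeps a gene with no read at -2.08 makes such differences smaller in pairs of few reads. From the reads themselves, with fewer than 3 reads set to 3, the log2 ratio exceeded 2 in 5 of the 22 pairs (22.7%) and in 32.2% of all pairs, and it exceeded 1 in 45.5% and 55.8%. The .L homeolog was higher in 11 of the 22 pairs (50%) and in 56.2% of all pairs. With both homeologs above an average log2 CPM of 0, the median was 0.92 for 14 pairs of the family and 1.005 for 4716 pairs. A homeolog without a read was found in none of the 22 pairs and in 794 of all 7460 pairs. These values describe the pairs and were not tested, since genes are not replicates.

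Several class 3 genes lie side by side in the genome, which allows neighbors to be set next to each other. In the order of protein-coding genes of the RefSeq annotation (Xenopus laevis v10.1, used here for names and gene order only), sema3e, sema3a and sema3d are adjacent on both subgenomes, and sema3c follows with 3 genes between it and sema3e.L and 4 between it and sema3e.S. Within this row, sema3a had 392 (.L) and 179 (.S) reads, while its direct neighbors had 17 and 1 (sema3e) and 3 and 56 (sema3d). sema3e and sema3d thus leaned to opposite homeologs although they flank the same gene. sema3f and sema3b are separated by 3 genes on both subgenomes. There the contrast was wider, with about 10457 reads of sema3f.L beside 18 of sema3b.L and about 1332 of sema3f.S beside 2 of sema3b.S.

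**Figure D3:**
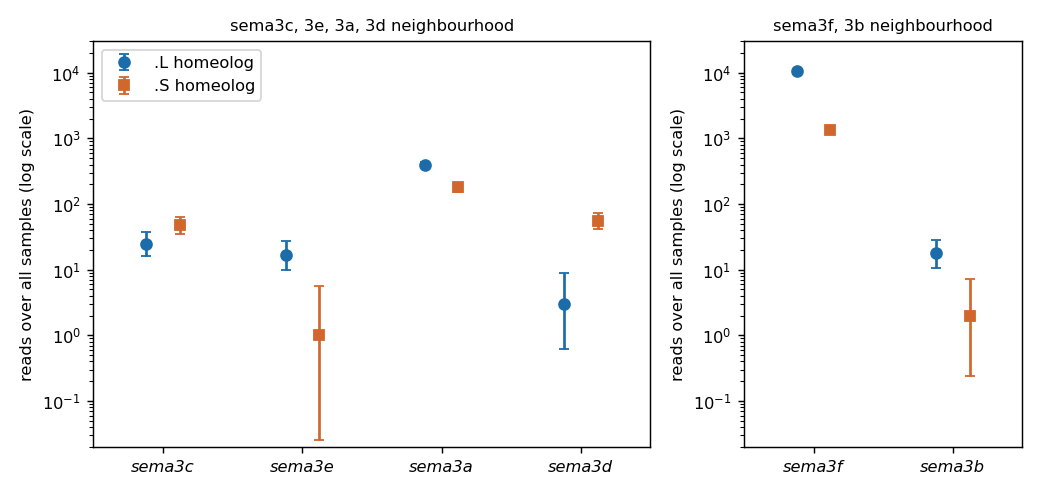
Reads summed over the 6 libraries (vertical axes, log scale) for neighboring class 3 semaphorin genes in their gene order (horizontal axes), with circles for .L and squares for .S homeologs and bars for exact 95% Poisson intervals. sema3a (392 and 179 reads) and sema3f (about 10457 and 1332 reads) stand above their neighbors, which have 1 to 56 reads.

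The order of genes also bears on the names of 2 members that have no partner. In the same annotation, of the 20 protein-coding genes nearest to nrp1.L, 15 have names ending in .S and 0 in .L. For plxna3.L these numbers are 13 and 0 among 16 genes. The .L ending of these symbols thus goes against that of their neighbors. For all other members that end in .L, genes ending in .L outnumbered those ending in .S.

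Other genes of the pathway, listed with earlier results of these data known, were looked up in the same way. Rows of the listed name were found for 26 of 33 genes downstream of plexins and 12 of 15 co-receptors. They were found for 6 of 7 of the other growth factors. Listed genes without such a row are left out of the shares below. Of 43 rows of genes that act downstream of plexins, all had reads and 33 (76.7%) had an average log2 CPM above 0, beside 90.7% and 68.2% of the genes with an .L or .S ending. Among these, rnd1, a small GTPase that binds plexins, stood at 7.55 (rnd1.S) and 6.38 (rnd1.L), and rhoa at 8.01 (rhoa.S) and 7.93 (rhoa.L). cfl1.L, the actin-severing cofilin at the end of this pathway, stood at 8.18. The list also held dpysl2.L, a CRMP protein that mediates sema3a signals in neurons (5.85), while both crmp1 rows were below 0 (-0.58 and -1.66). Of 19 rows of co-receptors, 13 were above 0 (68.4%, close to the 68.2% above). They included ptk7.L (8.23), which encodes a receptor that interacts with plexins in frog neural crest, and itgb1.L (7.71). Of 10 rows of other growth factors that bind neuropilins or were listed with them, 2 (20%) were above 0, namely vegfd.L (1.87) and vegfa.L (1.04).

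The labelled tissue was checked with markers. Rows of the listed name were found for 12 of 13 neural ectoderm genes and 11 of 12 epidermal and non-neural ectoderm genes. They were found for 10 of 12 genes each of the mesoderm and organizer list and the endoderm list. Listed genes without such a row, among them chrd and myod1, were not looked at. Of 23 rows of neural ectoderm markers, 20 (87.0%) had an average log2 CPM above 0, with 8.07 for sox3.S and 7.60 for sox3.L, whereas rax.L had no read and rax.S 1 read. Of 21 rows of epidermal and non-neural ectoderm markers, 19 (90.5%) were above 0, with 10.57 for epcam.S, 9.89 for krt12.5.S and 9.23 for grhl3.L. The median average log2 CPM was 8.18 for these rows and 5.81 for the neural ectoderm rows. Reads of the explants thus came from genes listed for both kinds of ectoderm. How far each listed gene is confined to 1 kind was not tested. The lists hold different genes and transcript lengths were not used, so the share of each kind of tissue cannot be read from these medians. Mesoderm and organizer markers were above 0 in 14 of 19 rows (73.7%) and endoderm markers in 12 of 17 (70.6%), which is close to the 68.2% of all genes with an .L or .S ending. Their median average log2 CPM was 1.05 and 0.55. Of the 19 mesoderm and organizer rows, 4 were above an average log2 CPM of 5, as were 23.4% of all genes with an .L or .S ending. They were tbxt.S (6.79), tbxt.L (5.84), not.L (5.23) and not.S (5.16). By the paper's account, tbxt is expressed in outer layers of the marginal zone at this stage, and the explants included that region. Of the endoderm rows, a2m.S stood at 6.78, whereas the other 16 lay between 2.27 (mix1.S) and -1.76 (darmin.L). Which cells of the explants the reads of semaphorins, plexins and neuropilins came from was not tested. Markers of vessel and blood cells, a known site of plxnd1 and neuropilins in later embryos, were above 0 in 5 of 19 rows (26.3%), with 2.68 for tek.S. Of 20 rows of neuron markers 8 (40%) were above 0, among them elavl3.L (6.80) and syt1.L (6.53), while 4 rows had no read and tubb3.L had 5.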

How the data were processed

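Libraries of poly(A) RNA (3 control, 3 stretched) were sequenced by the authors on an Illumina HiSeq. STAR is the aligner in the paper's methods, whereas TopHat2 stands in the submitters' processing notes beside HTSeq, DESeq and edgeR, each without a version. The genome build is not given in the sources used here. Deposited by the authors was 1 table for the whole series, with an average log2 CPM for each gene taken over the samples. Its further columns (log2 fold change, F, p-value and FDR) hold the authors' own comparison of stretched with control explants and were not used, so that no test between the groups was made, although one had been planned for the case of counts per sample. The table has 42549 rows with 42548 different names, and 1 further line had been emptied.

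Each average was converted to reads summed over the 6 libraries as 12 times the rise over the lowest CPM, divided by that CPM (0.237). The conversion was tested on data simulated with the offset that it assumes. That test does not give the error of the larger totals in the present data. Exact intervals (95%, Poisson or binomial) were computed with scipy 1.17.1 in Python 3.11.15 with numpy 2.4.6 and pandas 2.3.3. All 49 members match a RefSeq symbol. Sequences and coding lengths were not used here, so that the planned levels per coding length and the comparison of homeolog sequences were not made.

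The members and gene lists were chosen with earlier results of these data known. Named were the gene with most reads in each subfamily, all neuropilins and the most and least unequal homeolog pairs, and up to 4 rows with most reads from other lists. The part of this rule that needs levels per length was left out, and values of all other members and of some list rows had been seen when they were named. The alternatives comprised other thresholds for detection (an average log2 CPM above 0 or 1 and, added after seeing the data, at least 10 reads), subtracting the lowest CPM, counting only the higher homeolog, and pairs with both homeologs above 0.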

Additional observations from a re-analysis of the deposited data

How the results depend on the processing

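The number of members counted as detected was 49 with any read, 43 with at least 10 reads (an alternative chosen after seeing the data), 34 with an average log2 CPM above 0 and 29 with one above 1. At 10 reads this is 87.8% of the members, against 77.1% of all genes with an .L or .S ending, and above 1 it is 59.2% against 61.7%. The summed CPM of the semaphorins was 714 as deposited, 706 after the CPM of a gene with no read was subtracted from each gene, and 498 when only the higher homeolog of each pair was counted. The last 2 values were 499 and 327 for the plexins (502 as deposited), and 4.75 and 4.20 for the neuropilins (5.46 as deposited). Counting 1 homeolog lowers a sum by construction. The 10 pairs that differed by more than 1 on the log2 scale were 7 when both homeologs had to be above an average log2 CPM of 0, and 10 after the subtraction. Of differences above 2, there were 3 as deposited, 2 with both homeologs above 0, and 5 after the subtraction, which also counts sema3e and sema3b. The .L homeolog was higher in 11 pairs, in 8 pairs above 0, and in 11 after the subtraction. No paired analysis was possible because the values are averages over all samples, and leaving out single replicates, another normalization and a division by coding length were not run. Depth limits the 6 members with 1 to 9 reads, whose order within a pair was not resolved for sema6b and sema6c. The spread between samples and the effect of stretching on these genes were not analysed here.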
